A study of Mus musculus with 4 samples.

Results

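The genes described here are 43 genes of the extracellular matrix, chosen by symbol: collagens, basement membrane proteins, matrix glycoproteins and proteoglycans, the oxidases that crosslink collagen and elastin, and the proteases that cut matrix together with their inhibitors. All 43 were found among the 24421 mouse gene symbols of the deposited table. The study measured RNA from livers of mice after hepatectomy, the surgical removal of part of the liver, and asked what differs when a fibrin gel given to the animals carries cells. The control group, 2 libraries, got fibrin gel alone. The gelADSC group, 2 libraries, got the gel with ADSC inside, an abbreviation that the labels do not spell out and that is commonly used for adipose-derived stem cells. Hepatectomy and fibrin gel are therefore common to all 4 libraries. Strain, sex, age, time after surgery, the species and preparation of the ADSC and the number of animals behind a library are not given by these sources, so the p-values measure the spread between these libraries, which may be technical. The libraries are called by the numbers in the column names, 1 and 3 for control and 2 and 3 for gelADSC.

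The liver keeps little matrix between its hepatocytes and the sinusoids, its capillaries. Stellate cells, portal fibroblasts and endothelial cells make most of the collagens, laminins and proteoglycans, while hepatocytes secrete plasma fibronectin and the precursors of plasmin. After hepatectomy the urokinase and tissue-type plasminogen activators turn plasminogen into plasmin, which opens matrix and releases growth factors bound to it, and matrix is laid down again as the tissue regrows.

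Values are FPKM, fragments per kilobase of gene scaled by library depth, so levels can be compared between genes. Changes are differences of mean log2(FPKM + 1), gelADSC minus control, with the standard error (SE) and a limma p-value adjusted by Benjamini-Hochberg over the 11070 genes that averaged 1 FPKM or more. Adjusted p under 0.05 is called a change, and folds quoted beside it are ratios of the group mean FPKM. The libraries held roughly 18100000 to 24400000 reads. The hepatocyte product albumin (Alb), a check of the tissue label, read 22022.7 to 38330.1 FPKM. Among all tested genes 1936 were called lower and 766 higher, 28.3% of calls higher, and the median change was -0.25. Median ratio scaling moved that median to 0.00 and the share to 50.1%, so changes of groups are given relative to it as well. Control library 1 read above control library 3 for 32 of the 36 tested matrix genes, by a median of 0.75 on the log2 scale, against 8503 of all 11070 genes and a median of 0.21. The gelADSC libraries lay closer together, with a median absolute gap of 0.22 over the matrix genes, against 0.75 between the controls. Leaving out control library 1 reduced the calls over all tested genes to 326 lower and 279 higher.

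Livers of the gelADSC group had less transcript of tissue plasminogen activator (Plat), of the basement membrane proteins nidogen-1 (Nid1), collagen IV (Col4a1, Col4a2) and laminin gamma 1 (Lamc1), of thrombospondin-1 (Thbs1) and of the proteases Adamts1 and Mmp14. They had more of lumican (Lum) and collagen XIV (Col14a1), which both bind the surface of collagen fibrils. Of these calls only those of Plat, Nid1 and Adamts1 held in every alternative setting of the analysis. That of Lamc1 was lost in 6 of 11. The fibrillar collagens I, III and V, fibronectin (Fn1), decorin (Dcn), biglycan (Bgn) and Timp2 and Timp3 did not pass the threshold. Of the 43 genes 36 were tested, and 8 were called lower and 2 higher. That is 27.8% called, where 24.4% of all tested genes were called, 17.5% lower and 6.92% higher, so the share called is near the background. Their median change was 0.02, or 0.27 above the median of all tested genes, and it ran from -0.43 (control library 3 left out) to 0.29 (control library 1 left out), so its direction depends on single libraries. When single libraries were left out the calls were 3 lower and 4 higher (control library 1), 9 and 1 (control library 3), 8 and 3 (gelADSC library 2) or 7 and 5 (gelADSC library 3). Fewer cells of a type and less RNA per cell cannot be told apart in whole liver.

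**Figure D1:**
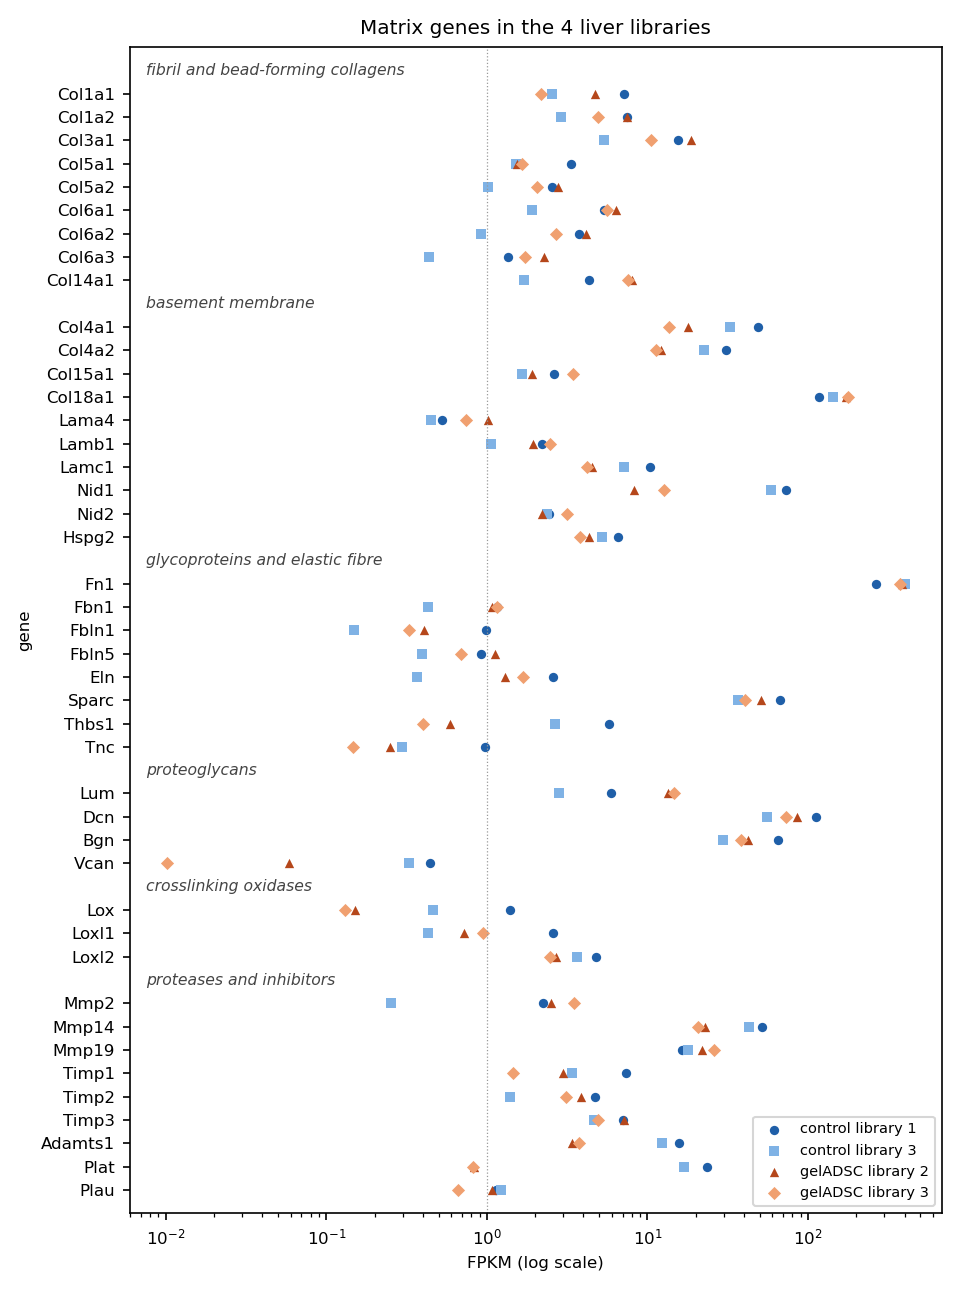
Levels of the 43 matrix genes in each of the 4 libraries, as FPKM on a log scale, grouped by function, with 1 point per library and a dotted line at 1 FPKM. Plat, Nid1, Adamts1 and Thbs1 separate the groups widely, while most fibrillar collagens span a wider range between the control libraries than between the groups.

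**Figure D2:**
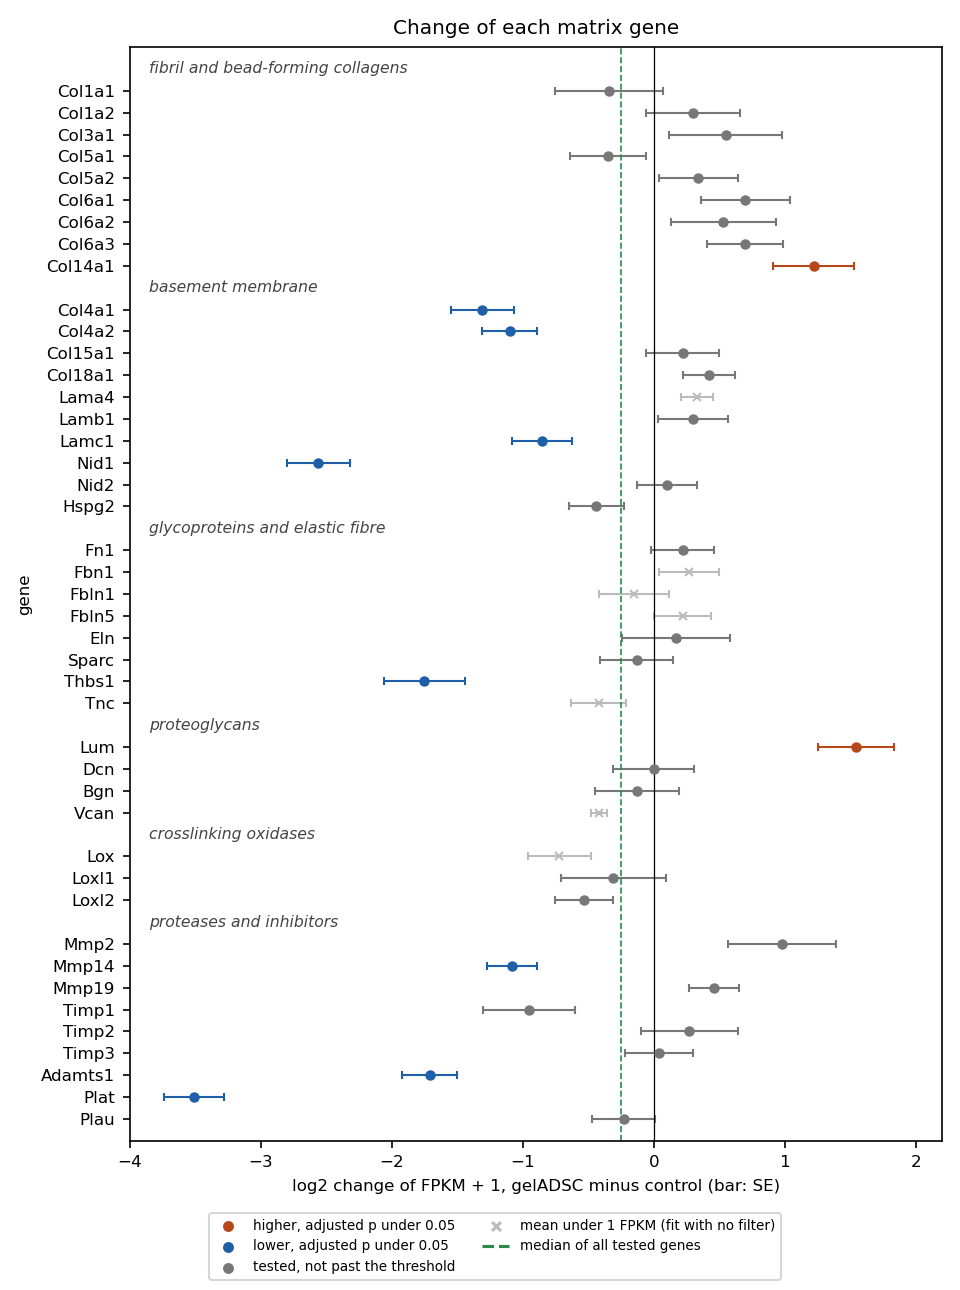
Change of each gene on the log2(FPKM + 1) scale, gelADSC minus control, with bars of 1 SE, the median of all tested genes as a dashed line and crosses for genes with a mean under 1 FPKM, fitted with no filter. The 8 genes called lower lie between -0.85 and -3.51, and Col14a1 and Lum, the 2 called higher, at 1.22 and 1.54.

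The DNA around the start of 4 genes that fell is shown here because it bears on how they are arranged. Col4a1 and Col4a2 lie head to head on opposite strands, so their start regions overlap, and Nid1 and Adamts1 kept their calls in every alternative. Each window runs from 250 bases before to 50 bases after the annotated start (RefSeq, GRCm38.p6), 5′ to 3′ on the gene's strand. Capitals mark the GC box, GGGCGG on either strand. The windows are chr8:11312777-11313076 on the minus strand for Col4a1, chr8:11312555-11312854 on the plus strand for Col4a2, chr13:13437352-13437651 on the plus strand for Nid1 and chr16:85803064-85803363 on the minus strand for Adamts1.
Col4a1: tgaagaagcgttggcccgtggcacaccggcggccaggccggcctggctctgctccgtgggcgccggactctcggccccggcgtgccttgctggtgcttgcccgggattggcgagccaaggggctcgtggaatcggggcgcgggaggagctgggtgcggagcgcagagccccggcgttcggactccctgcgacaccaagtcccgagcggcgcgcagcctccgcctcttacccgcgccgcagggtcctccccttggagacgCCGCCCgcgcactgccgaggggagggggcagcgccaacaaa
Col4a2: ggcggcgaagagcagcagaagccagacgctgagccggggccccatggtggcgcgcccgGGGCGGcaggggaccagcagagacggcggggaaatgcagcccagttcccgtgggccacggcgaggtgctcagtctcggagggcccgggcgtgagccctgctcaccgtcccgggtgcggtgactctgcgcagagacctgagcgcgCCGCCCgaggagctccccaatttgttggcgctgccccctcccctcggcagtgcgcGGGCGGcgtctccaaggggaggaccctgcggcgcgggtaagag
Nid1: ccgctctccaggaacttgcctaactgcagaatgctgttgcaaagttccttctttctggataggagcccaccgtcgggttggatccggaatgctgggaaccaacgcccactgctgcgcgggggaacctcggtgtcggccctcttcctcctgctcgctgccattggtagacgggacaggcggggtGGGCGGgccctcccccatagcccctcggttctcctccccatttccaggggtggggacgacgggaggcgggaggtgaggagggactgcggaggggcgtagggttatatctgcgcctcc
Adamts1: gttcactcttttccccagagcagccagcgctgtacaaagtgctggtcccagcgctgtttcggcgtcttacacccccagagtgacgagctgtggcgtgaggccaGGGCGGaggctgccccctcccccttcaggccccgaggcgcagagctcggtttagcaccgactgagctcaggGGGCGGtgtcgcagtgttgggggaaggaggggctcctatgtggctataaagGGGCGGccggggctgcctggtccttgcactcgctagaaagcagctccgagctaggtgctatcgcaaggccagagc
The Col4a1 and Col4a2 windows have 78 bases in common, and the annotated starts are 21 bases apart. Col4a2 starts at base 11312805 on the plus strand and Col4a1 at base 11312826 on the minus strand. Each annotated gene thus begins inside the other, with no gap between them. A GC box was present in the windows of 20 of the 25 matrix genes that matched the table. Among them were 5 of the 5 called genes with a window (Col4a1, Col4a2, Nid1, Adamts1 and Mmp14) and 15 of the other 20. The Col4a1 box lies after its start and is the same stretch of DNA as the last marked box of Col4a2. Of all 32851 windows of this length 35.7% held a GC box. The 25 genes had 30 windows, and a gene was counted if any of its windows matched. Counts of genes and shares of windows are therefore not in the same unit. The AP-1 motif, TGANTCA on either strand, was found for 1 of the 25 genes (Col6a1) and in 7.81% of all windows. A match is a run of letters and not a measured binding site.

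Collagens that build fibrils and beaded filaments were measured as 9 genes, all of them tested. Col14a1 alone passed, and the median change was 0.53, or 0.78 above that of all genes. Col14a1, a collagen that attaches to fibrils and spaces them, read 4.30 and 1.71 FPKM in control libraries 1 and 3, and 8.06 and 7.57 FPKM in libraries 2 and 3 of the gelADSC group. Both gelADSC values lay above both controls, a 2.60-fold difference of means (log2 change 1.22, SE 0.31, adjusted p = 0.0247). The call was lost without control library 3 (0.064) and with no filter (0.11), with adjusted p from 0.00438 to 0.11 over 11 alternatives. The number of these collagens called higher was 2 when control library 1 was left out, 0 for control library 3 and 3 for gelADSC library 3.

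Collagen III and collagen I are the main fibrillar collagens of liver, and Col3a1 was the most abundant of the 9 genes. It read 15.6 and 5.34 FPKM in control livers, then 18.8 and 10.5 FPKM in gelADSC livers (log2 change 0.55, SE 0.43, adjusted p = 0.368). Col1a2, the alpha 2 chain of collagen I, read 7.46 and 2.89 FPKM against 7.43 and 4.95 FPKM (0.30, SE 0.36, adjusted p = 0.559). The values of these genes overlapped between the groups, and control library 1 held about as much as gelADSC library 2. Col1a1, the alpha 1 chain, read 7.17 and 2.53 FPKM against 4.71 and 2.17 FPKM (-0.34, SE 0.41, adjusted p = 0.578). Leaving out gelADSC library 3 made Col3a1 a higher call (adjusted p = 0.0359, over a range from 0.0359 to 0.829), and leaving out control library 3 turned its change to -0.14. All 9 genes read higher in control library 1 than in control library 3, by a median of 1.12 on the log2 scale, and their summed FPKM was 50.9 and 18.3 in the controls and 56.1 and 38.9 in gelADSC.

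Collagen V starts fibrils, and collagen VI forms beaded filaments around cells. Col5a1 and Col5a2 had changes of -0.35 and 0.34, with overlapping groups. The collagen VI chains Col6a1, Col6a2 and Col6a3 had changes of 0.70, 0.53 and 0.70 with adjusted p from 0.104 to 0.345. Col6a3 read 1.35 and 0.438 FPKM in control livers, then 2.27 and 1.73 FPKM in gelADSC livers, without overlap. Col6a3 was called higher without gelADSC library 3 (adjusted p = 0.0224, over a range from 0.0224 to 0.325). Col6a1 was called higher without control library 1 (adjusted p = 0.0494, over a range from 0.0494 to 0.647).

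Most markers of smooth muscle, all 14 of stellate cells and some of fibroblasts and fat moved with the gap between the control libraries. Control library 1 also read higher for 8503 of all 11070 tested genes. For the stellate cell markers the median gap was 0.49, where it was 0.21 over all genes. Of the myofibroblast list (Acta2, Tagln, Myl9, Cnn1, Actg2, Tpm2, Postn, Mgp, Spp1) 6 of 7 tested genes were higher in control library 1, by a median of 1.66, and 1 of the 7 was called lower (Spp1, itself higher in control library 3), where 17.5% of all genes were. With median ratio scaling 0 myofibroblast genes were called lower. More were called lower when control library 3 or gelADSC library 2 was left out, so the count is unsteady. Acta2, smooth muscle actin, read 12.4 and 2.04 FPKM in control livers, then 3.51 and 1.16 FPKM in gelADSC livers libraries 2 and 3. Actg2, a smooth muscle gamma actin, read 2.75 and 0.084 FPKM, then 0.654 and 0.0377 FPKM. Of the tested fibroblast markers 4 of 5 read higher in control library 1, with a median gap of 0.63 and Entpd2 as the exception, and of the adipocyte markers 3 of 4, with a median gap of 0.60. Cidea, a fat droplet protein, went the other way, at 1.55 and 3.27 FPKM in the controls. Adipoq, the adipocyte hormone adiponectin, read 0.652 FPKM in control library 1 and 0.765 FPKM in gelADSC library 2 and was listed at 0 in control library 3 and gelADSC library 3. The part of these cells in the matrix values was not tested.

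The gap between the controls was larger than the group change for 19 of the 36 tested matrix genes, and for 31.8% of all tested genes. In the 36 genes the median absolute gap was 0.75 between the controls and 0.22 between the gelADSC libraries, and the median absolute group change was 0.45. A p above the threshold for a collagen therefore stands beside a wide spread in the control group and does not show equal levels.

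**Figure D3:**
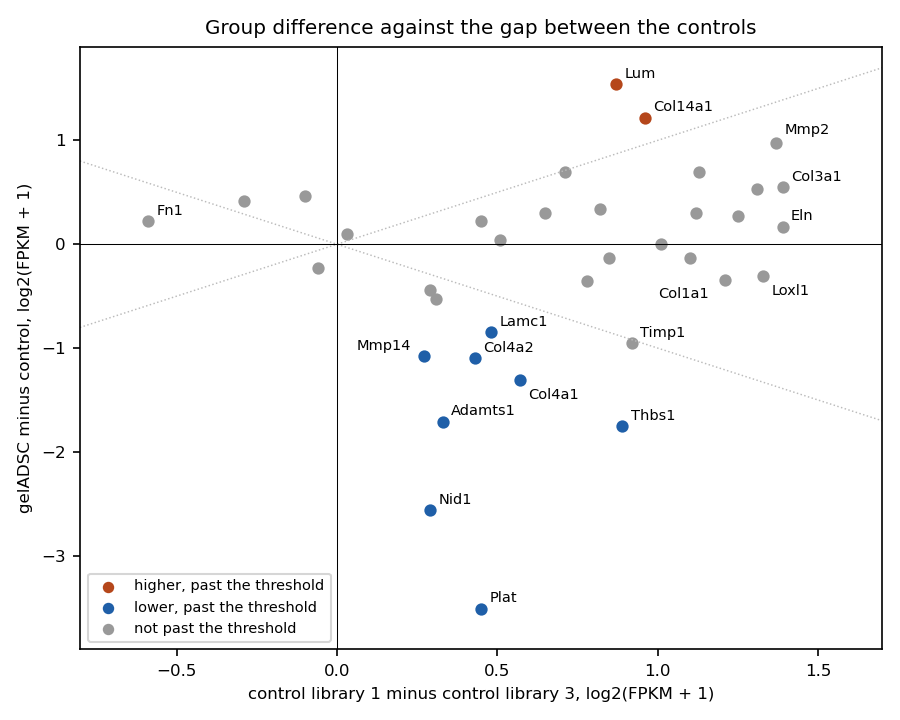
Change between the groups (vertical) against the difference of control library 1 from control library 3 (horizontal) for the 36 tested genes, both on the log2(FPKM + 1) scale. In the wedges to the left and right of the dotted lines the controls differ by more than the groups do. Eln, Col3a1, Mmp2, Loxl1 and Col6a2 lie at the right, with control gaps from 1.31 to 1.39.

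Basement membranes are sheets of collagen IV and laminin tied together by nidogens and the proteoglycan perlecan. Of 10 genes 9 were tested, 4 were lower and 0 higher, against 17.5% lower among all genes. The lower calls numbered 1 without control library 1 and 2 with no filter or quantile normalization. Nid1, the linker between laminin and collagen IV, was the most changed. It read 72.6 and 59.2 FPKM in control livers, then 8.28 and 12.7 FPKM in gelADSC livers, 6.28-fold lower (log2 change -2.56, SE 0.24, adjusted p = 0.000362). Every control value exceeded every gelADSC value more than 4-fold, and the call held in all 11 alternatives, with adjusted p up to 0.0299.

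The paralog Nid2 did not pass. It read 2.43 and 2.37 FPKM in control livers, then 2.2 and 3.14 FPKM in gelADSC livers (0.10, SE 0.23, adjusted p = 0.783). The ratio of Nid1 to Nid2 was 29.8 and 24.9 in the controls and 3.76 and 4.05 in gelADSC. With 2 libraries against 2 an exact permutation test cannot give a two-sided p below 0.333, so the ratios within libraries are a description.

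The collagen IV chains Col4a1 and Col4a2 fell. The scarcer chains Col4a3, Col4a4, Col4a5 and Col4a6, outside the chosen genes, had means under 1 FPKM. Fitted only with no filter, these scarcer chains had changes of 0.02, 0.1, 0.13 and 0.08, and none passed (adjusted p from 0.304 to 0.751). Col4a1 read 49.1 and 32.7 FPKM in control livers, then 17.8 and 13.6 FPKM in gelADSC livers, 2.61-fold lower (log2 change -1.31, SE 0.24, adjusted p = 0.00734). Col4a2 read 30.7 and 22.5 FPKM against 12.2 and 11.3 FPKM, 2.27-fold lower (-1.10, SE 0.21, adjusted p = 0.00839). The groups did not overlap for either gene, and the ratio of Col4a1 to Col4a2 stayed between 1.21 and 1.60 in the 4 libraries. The call of Col4a1 was lost without control library 1 (0.0862), after quantile normalization (0.0502) and with no filter (0.0505), over a range from 6.34e-05 to 0.0862. That of Col4a2 was lost without control library 1 (0.0766), over a range from 0.00337 to 0.0766.

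Laminin is a trimer of an alpha, a beta and a gamma chain, and of its chains gamma 1 passed. Lamc1 read 10.4 and 7.16 FPKM in control livers, then 4.51 and 4.2 FPKM in gelADSC livers, 2.01-fold lower (-0.85, SE 0.23, adjusted p = 0.0298). That call was lost in 6 of 11 alternatives, over a range from 0.0226 to 0.17, among them without control library 1 (0.17), gelADSC library 2 (0.0728) or gelADSC library 3 (0.103). The others were no filter, median ratio scaling and quantile normalization. Lamb1, the beta 1 chain, read 2.22 and 1.06 FPKM against 1.93 and 2.46 FPKM (0.30, SE 0.27, adjusted p = 0.432). Lama4, the alpha chain of endothelial laminins, had a mean under 1 FPKM and read 0.523 and 0.448 FPKM against 1.01 and 0.739 FPKM. The ratio of Lamc1 to Lamb1 was 4.66 and 6.75 in the controls and 2.34 and 1.71 in gelADSC.

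The remaining basement membrane genes did not pass. Col18a1, whose collagen XVIII releases endostatin and is made by hepatocytes, was the second most abundant of the 43 genes. It read 118.0 and 144.4 FPKM in control livers, then 173.6 and 176.6 FPKM in gelADSC livers, without overlap (0.42, SE 0.20, adjusted p = 0.146). Hspg2, perlecan, read 6.59 and 5.22 FPKM against 4.30 and 3.83 FPKM (-0.44, SE 0.21, adjusted p = 0.156). Col15a1, a collagen at the rim of basement membranes, had a change of 0.22 (SE 0.28) with overlapping groups. So the class held genes called lower beside genes whose values pointed up.

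Endothelial cells and stellate cells both make basement membrane. Of the 14 sinusoidal endothelial markers 2 were called higher (Kdr, Stab2) and 1 lower (Lyve1), where 6.92% of all genes were higher and 17.5% lower, and their summed FPKM was 212.8 and 186.5 in the controls and 207.1 and 180.6 in gelADSC. Endothelial calls were 0 in either direction when control library 1 was left out, 1 higher and 0 lower for control library 3 or gelADSC library 3, 0 higher and 1 lower for gelADSC library 2, and 4 higher and 0 lower after median ratio scaling or quantile normalization. Of the 14 stellate cell markers 5 were called higher (Colec11, Rgs5, Reln, Pth1r, Lrat) and 1 lower (Ecm1). The higher stellate calls fell to 1 when either control library was left out or no filter was used, and to 3 when gelADSC library 2 was left out. Their summed FPKM was 121.0 and 66.3 in the controls, most of it Ecm1, and 75.5 and 85.0 in gelADSC. The part of these cells in the fall of Nid1, Col4a1 and Col4a2 was not tested.

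Matrix glycoproteins and elastic fibre proteins were 8 genes, of which 4 reached the level for testing. Fn1, fibronectin, the most abundant of the 43 genes, read 267.1 and 403.2 FPKM in control livers, then 385.9 and 377.0 FPKM in gelADSC livers (0.22, SE 0.24, adjusted p = 0.533). Both gelADSC values lay between the controls. Sparc, a collagen-binding protein that modulates cell adhesion, read 67.1 and 36.8 FPKM against 50.7 and 40.4 FPKM (-0.13, SE 0.28, adjusted p = 0.757), again within the range of the controls. The change of Sparc was 0.15 with median ratio scaling, so its sign depends on the scaling.

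Thbs1 was the member of this class that fell. Thrombospondin-1 binds CD36 and CD47 and can activate latent TGF-beta. It read 5.80 and 2.67 FPKM in control livers, then 0.586 and 0.402 FPKM in gelADSC livers, 8.58-fold lower (log2 change -1.75, SE 0.31, adjusted p = 0.00579). The lowest control value was more than 4 times the highest gelADSC value, and the gelADSC values rest on at least 83 and 47 reads. The call was lost without control library 1 (0.0505) and with no filter (0.0541), over a range from 4.61e-07 to 0.0541 in 10 alternatives.

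The other glycoproteins were scarce. Eln, elastin, was tested and read 2.59 and 0.365 FPKM in control livers, then 1.30 and 1.68 FPKM in gelADSC livers, inside the range of the controls. Tnc, tenascin-C, a protein of injured matrix, read 0.975 and 0.296 FPKM against 0.248 and 0.147 FPKM, and Fbln1, fibulin-1, read 0.986 and 0.148 FPKM against 0.403 and 0.325 FPKM. Fbn1, fibrillin-1, and Fbln5, fibulin-5, proteins of elastic fibres, lay between 0.394 and 1.16 FPKM in all libraries. Tnc, Fbln1, Fbn1 and Fbln5 had means under 1 FPKM and were fitted only with no filter, where none passed (adjusted p from 0.263 to 0.757).

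The small leucine-rich proteoglycans lumican, decorin and biglycan coat collagen fibrils and set their width, and lumican alone passed. Lum, lumican, read 5.97 and 2.82 FPKM in control livers, then 13.4 and 14.6 FPKM in gelADSC livers, 3.18-fold higher (log2 change 1.54, SE 0.29, adjusted p = 0.00736). Both gelADSC libraries lay above the controls. Its call was lost only with no filter (0.0605) among 11 alternatives, over a range from 0.000178 to 0.0605.

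Dcn, decorin, read 112.8 and 55.3 FPKM in control livers, then 85.2 and 73.5 FPKM in gelADSC livers (0.00, SE 0.31, adjusted p = 0.998). Bgn, biglycan, read 65.1 and 29.8 FPKM against 42.3 and 38.2 FPKM (-0.13, SE 0.32, adjusted p = 0.794). For Dcn and Bgn the gelADSC values lay between the controls, and with median ratio scaling the changes were 0.29 and 0.16. The ratio of Lum to Dcn was 0.0529 and 0.051 in the controls and 0.158 and 0.198 in gelADSC, whereas that of Dcn to Bgn stayed between 1.73 and 2.01. In the controls the Lum to Dcn ratio differed little although each gene differed about 2-fold between these libraries.

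Vcan, versican, a large proteoglycan of provisional matrix, was the rarest member. It read 0.441 and 0.327 FPKM in control livers, then 0.0586 and 0.0101 FPKM in gelADSC livers, and the lowest 2 values rest on at least 7 reads and 1 read. The controls did not overlap with gelADSC, and Vcan passed in the fit with no filter (log2 change -0.42, SE 0.06, adjusted p = 0.0341), a scale that compresses changes of so low a gene.

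**Figure D4:**
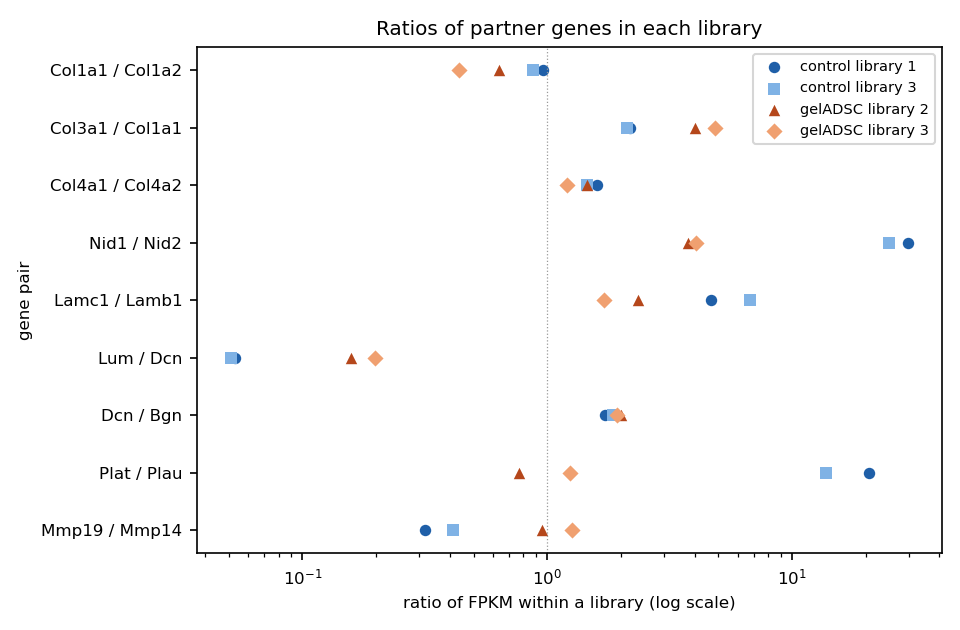
Ratios of FPKM between partner genes within each library, on a log scale, with 1 point per library and a dotted line at equal levels. Among the pairs shown the groups overlap only for Col4a1 to Col4a2. They do not overlap for Nid1 to Nid2, Plat to Plau, Lamc1 to Lamb1, Lum to Dcn, Col1a1 to Col1a2, Col3a1 to Col1a1 and Mmp19 to Mmp14. Dcn to Bgn stays between 1.73 and 2.01 in all libraries, with the gelADSC values slightly above the controls.

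Some chain ratios of collagens separated the groups and others did not. Collagen I is built from alpha 1 and alpha 2 chains. The ratio of Col1a1 to Col1a2 was 0.960 and 0.875 in the controls and 0.634 and 0.437 in gelADSC, and that of Col3a1 to Col1a1 was 2.18 and 2.11 in the controls and 4.0 and 4.84 in gelADSC. The ratio of Col5a1 to Col5a2 was 1.31 and 1.5 against 0.548 and 0.810. The groups overlapped for Col4a1 to Col4a2 and for Col6a1 to Col6a2 (1.43 and 2.07 against 1.54 and 2.09), and lay close for Col3a1 to Col1a2 (2.1 and 1.85 against 2.53 and 2.12). For Col1a1 to Col1a2, Col3a1 to Col1a1 and Col5a1 to Col5a2 the ratios of the controls lay close together although control library 1 read at least 2-fold above library 3 for each of these genes, and the groups did not overlap. The ratios were chosen after values were seen and carry no test.

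Lysyl oxidases crosslink collagen and elastin. None of the 3 genes passed. Lox read 1.40 and 0.459 FPKM in control livers, then 0.150 and 0.131 FPKM in gelADSC livers, from at least 138, 41, 18 and 13 reads, a ratio of means of 6.64. It had a mean under 1 FPKM, and its adjusted p with no filter was 0.14. Loxl2 read 4.8 and 3.67 FPKM against 2.71 and 2.48 FPKM (-0.53, SE 0.22, adjusted p = 0.107), without overlap. Loxl1 read 2.60 and 0.430 FPKM against 0.724 and 0.952 FPKM, with overlap (-0.31, SE 0.40), and was called lower without control library 3 (adjusted p = 0.0488, over a range from 0.0488 to 0.818).

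Plat, tissue-type plasminogen activator, changed most of the 43 genes. It read 23.4 and 16.8 FPKM in control livers, then 0.834 and 0.816 FPKM in gelADSC livers, 24.3-fold lower (log2 change -3.51, SE 0.23, adjusted p = 7.18e-05). The gelADSC values rest on at least 52 and 42 reads and lie within 3% of each other, and the call held in all 11 alternatives, with adjusted p up to 0.0132. Plau, urokinase, the other activator of plasminogen, read 1.14 and 1.23 FPKM against 1.08 and 0.657 FPKM (-0.23, SE 0.24, adjusted p = 0.497). The ratio of Plat to Plau was 20.6 and 13.7 in the controls and 0.769 and 1.24 in gelADSC.

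Other genes around plasmin moved as well. Of 13 further tested genes of this system 5 were lower and 3 higher, where 17.5% of all genes were lower and 6.92% higher. Anxa2 and S100a10 encode the annexin A2 complex that binds tissue plasminogen activator and plasminogen at the cell surface. Anxa2 read 455.6 and 283.5 FPKM in control livers, then 26.9 and 24.2 FPKM in gelADSC livers (log2 change -3.76, SE 0.25, adjusted p = 8.2e-05), and S100a10 fell by 2.70 (SE 0.29, adjusted p = 0.000622). Plaur, the urokinase receptor, read 24.8 and 12.3 FPKM against 1.47 and 0.853 FPKM (-3.11, SE 0.32, adjusted p = 0.000575). Plat and both parts of its cell surface complex were thus lower, and the calls of Anxa2, S100a10 and Plaur held in all 11 alternatives. Plg, plasminogen itself, named after its value was seen, read 306.5 and 469.2 FPKM in control livers, then 1089.3 and 1035.5 FPKM in gelADSC livers (1.48, SE 0.25, adjusted p = 0.00476), a call lost without control library 1 (0.0695, the highest of 11 alternatives, with a lowest of 2.9e-05). With control library 1 left out the list held 5 lower and 1 higher gene.

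Adamts1 and Mmp14 were the other proteases that fell. Adamts1, which cleaves versican and other proteoglycans, read 15.7 and 12.3 FPKM in control livers, then 3.39 and 3.76 FPKM in gelADSC livers, 3.93-fold lower (log2 change -1.71, SE 0.21, adjusted p = 0.00123). Its groups lay far apart, and the call held in all 11 alternatives, with adjusted p up to 0.0341. Mmp14, the membrane-bound collagenase that activates Mmp2, read 51.9 and 43 FPKM against 23.0 and 20.6 FPKM, 2.18-fold lower (-1.08, SE 0.19, adjusted p = 0.0063). Its call was lost only without control library 1 (0.0679), over a range from 0.00251 to 0.0679.

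Mmp2 and Mmp19 pointed up without passing. Mmp2, gelatinase A, read 2.24 and 0.254 FPKM in control livers, then 2.51 and 3.49 FPKM in gelADSC livers, without overlap (0.98, SE 0.41, adjusted p = 0.111). It was called higher without control library 1 (0.0413), gelADSC library 2 (0.00152) or gelADSC library 3 (0.0371), over a range from 0.00152 to 0.428, and the value in control library 3 rests on at least 7 reads. Mmp19, a metalloprotease of basement membrane and other matrix, read 16.5 and 17.8 FPKM against 22.0 and 25.9 FPKM (0.46, SE 0.19, adjusted p = 0.112). Mmp19 was called higher with median ratio scaling (0.0432) and after quantile normalization (0.0355), over a range from 0.0355 to 0.5. The ratio of Mmp19 to Mmp14 was 0.317 and 0.413 in the controls and 0.954 and 1.26 in gelADSC.

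The tissue inhibitors of metalloproteases did not pass. Timp1, the inducible inhibitor, read 7.33 and 3.41 FPKM in control livers, then 2.99 and 1.45 FPKM in gelADSC livers, without overlap (-0.95, SE 0.35, adjusted p = 0.0772), and was called lower without gelADSC library 2 (adjusted p = 0.002, over a range from 0.002 to 0.436). Timp2, which also takes part in activating Mmp2, read 4.71 and 1.40 FPKM against 3.88 and 3.11 FPKM (0.27, SE 0.37). Timp3, the inhibitor bound to matrix, read 7.05 and 4.66 FPKM against 7.11 and 4.94 FPKM (0.04, SE 0.26). For Timp2 and Timp3 the groups overlapped. Over the 36 tested genes, 7 were higher in gelADSC without overlap and 12 lower, 19 in all, while the shares over all tested genes were 19.2%, 50.5% and 69.8%.

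Other matrix genes, from lists outside the 43, were counted in the same fit. Of 108 tested 33 were lower and 6 higher, beside 17.5% and 6.92% of all genes. Their median change was -0.33, or -0.08 relative to all genes. Of 31 other collagens 5 were tested and 2 were lower, beside the 17.5% of all genes that were lower. Col12a1, a fibril-associated collagen, read 2.42 and 1.71 FPKM against 0.129 and 0.301 FPKM. It reached the level for testing only through the control libraries. Col13a1, a transmembrane collagen, read 11.3 and 7.94 FPKM against 4.02 and 4.14 FPKM. With no filter or a mean of at least 5 FPKM, 1 other collagen was called lower. Among other basement membrane genes 2 of 9 were lower (22.2%, near that share). These were Npnt, the integrin ligand nephronectin, with a change of -1.39, and Smoc1, a calcium-binding protein, with -0.96. Npnt read 2.4 and 1.52 FPKM against 0.171 and 0.062 FPKM and also reached the level for testing only through the controls. Neither list held a lower gene when control library 1 was left out. With all 4 libraries and the filter, 0 genes of either list were called higher. With no filter 3 other basement membrane genes were called higher, all with means under 1 FPKM. Lama1 read 0.227 and 0.25 FPKM against 0.939 and 0.86 FPKM. Lama3 read 0.034 and 0.0267 FPKM against 1.05 and 0.605 FPKM, and Lamc3 0.169 and 0.112 FPKM against 0.608 and 0.728 FPKM. Median ratio scaling or quantile normalization gave 1 higher gene in that list.

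Genes that modify collagen chains were lower in 6 of 17 tested cases (35.3%) and higher in 0, beside 17.5% lower and 6.92% higher among all genes. The largest changes were those of Loxl4, a lysyl oxidase (-1.31), P3h1, a prolyl 3-hydroxylase (-1.20), Plod3, a lysyl hydroxylase (-0.90), and Tgm2, a transglutaminase that crosslinks matrix (-0.83). The count is unsteady, since leaving out control library 1 or the filter gave 0 lower genes. It was 1 when gelADSC library 2 was left out and 3 when control library 3 was. Quantile normalization gave 2 lower and 1 higher, and median ratio scaling 1 of each.

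Among other glycoproteins 5 of 21 were lower and 1 higher, near the shares over all genes (17.5% and 6.92%). Ctgf, a matricellular protein of the same family as Cyr61, read 26.1 and 19.8 FPKM in control livers, then 2.64 and 6.61 FPKM in gelADSC livers (log2 change -2.17, SE 0.33, adjusted p = 0.00323). Spp1, osteopontin, fell by 2.12 and Cyr61 by 1.72. Vtn, vitronectin, a plasma protein made by hepatocytes, read 673.4 and 893.5 FPKM in control livers, then 2116.9 and 1978.5 FPKM in gelADSC livers (1.40, SE 0.24, adjusted p = 0.00482). The calls of Ctgf and Vtn were lost without control library 1 (0.0957 and 0.0862, the highest of 11 alternatives, with lowest values of 8.85e-13 and 0.000189). That of Spp1 was lost with median ratio scaling (0.0552, the highest, with a lowest of 8.47e-12) and that of Cyr61 in 5 of 11 alternatives. Control library 1 left out, the list held 1 lower and 0 higher genes.

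**Figure D5:**
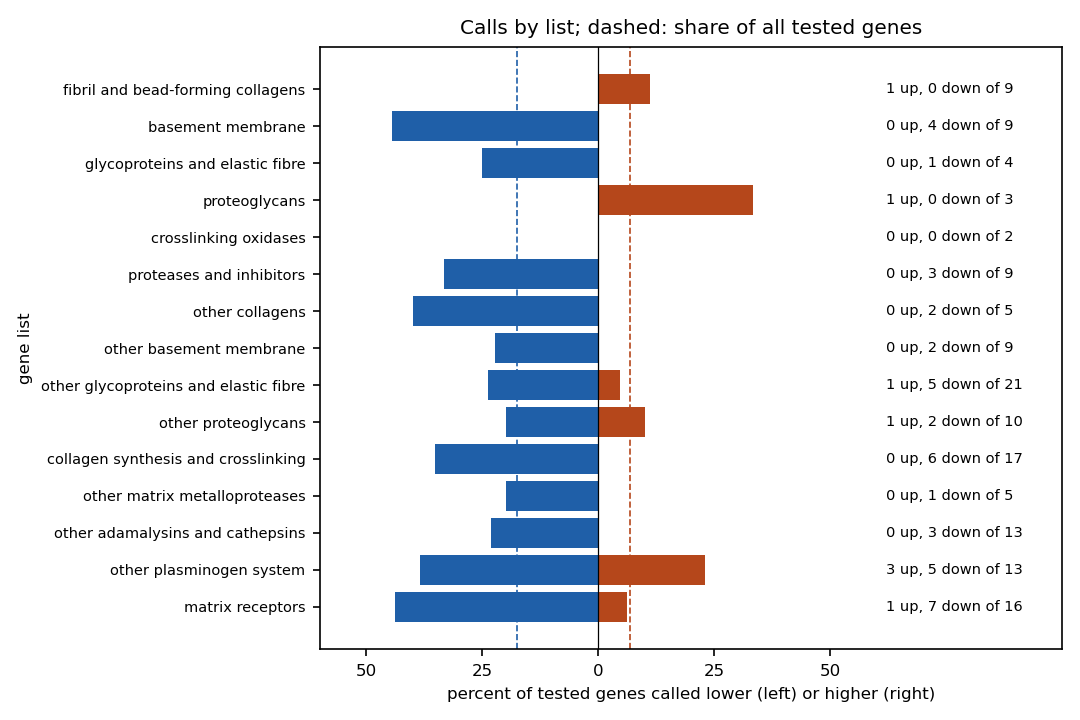
Share of the tested genes of each list that was called lower (bars to the left) or higher (bars to the right) in gelADSC, as percent, with the shares over all tested genes as dashed lines and the counts printed at the right. Basement membrane genes show 4 of 9 lower, and the plasminogen system shows calls on both sides, 5 lower and 3 higher of 13.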

How the data were processed

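RNA was measured in 4 mouse liver samples (2 control, 2 gelADSC) and deposited as 1 table. Trimmomatic 0.38, TopHat2 2.1.1 and Cufflinks 2.2.1 are named, without settings, per the submitters' processing notes, which also name hg19 although the symbols are mouse. The header gives no unit, and the deposited values were taken as FPKM as the authors' tools imply. Values of a gene were whole multiples of a common step once relative depth was removed (within 0.005 of a read for 99.6% of 17563 genes above 0), so read numbers are known up to a factor common to the 4 libraries and are given as "at least". Totals, from GENCODE M21 exon lengths, are approximate.

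Genes that averaged 1 FPKM or more were tested as log2(FPKM + 1), unscaled, with limma 3.58.1 in R 4.3.3 (two-sided, mean-variance trend, Benjamini-Hochberg over all 11070 genes, threshold 0.05). The filter used the mean of all 4 libraries, so a gene could pass it through 1 group alone. Thbs1, Plat, Col12a1, Npnt and Adamts4 read under 1 FPKM in both gelADSC libraries, and Itga8 in both control libraries. The code was tested on simulated data. The 43 genes and all lists were chosen with earlier results of these data known. Of 343 list symbols 4 were matched by synonym and 0 were unmatched. Named are all 43 genes, with values in every library where called or with a mean of at least 20 FPKM, and from other lists at most 4 called genes with the largest change, of which 1 is not reported here. Alternatives were pseudocounts of 0.1 and 5, no filter or a mean of at least 5 FPKM, median ratio scaling, quantile normalization, no trend and each library left out.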

Additional observations from a re-analysis of the deposited data

How the results depend on the processing

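No paired analysis was possible because the columns share only the number 3 between the groups, and the titles carry other numbers, 1 and 2 in each group. Among all tested genes, 1936 were called lower, 948 with median ratio scaling, 730 with no filter and 1000 after quantile normalization. Leaving out 1 library in turn gave 326 to 1765 lower and 279 to 815 higher genes. Of the 43 matrix genes, 8 were lower and 2 higher. With no filter 6 were lower (Vcan among them) and 0 higher, and leaving out 1 library gave 3 to 9 lower and 1 to 5 higher. When 1 library is dropped its group has a single value, which the fit treats as varying as much as the group that still has 2. Over 378 values of single matrix genes under the alternatives, 322 kept their direction and their side of the threshold, 16 lost a call, 10 gained one, and 30 uncalled ones changed sign. No called change turned its direction in the alternatives run. The median change of the matrix genes was 0.02 and ran from -0.43 without control library 3 to 0.29 without control library 1. At these depths 1 read in a gene of 2 kb is worth 0.0205 to 0.0276 FPKM, which limits Vcan, Lox, Tnc and Fbln1.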

Other observations

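Receptors for matrix were lower in 7 of 16 tested genes and higher in 1, where 17.5% of all genes were lower and 6.92% higher. Itga3, the integrin alpha chain that binds laminins, read 31.6 and 20.2 FPKM in control livers, then 2.11 and 1.97 FPKM in gelADSC livers (log2 change -3.11, SE 0.24, limma adjusted p = 0.000156). Ddr1, a tyrosine kinase receptor for collagen, read 5.79 and 6.81 FPKM against 1.72 and 1.51 FPKM (-1.48), and Itgav, the alpha chain of vitronectin and fibronectin receptors, 13.7 and 10.3 FPKM against 3.74 and 4.70 FPKM (-1.31). Itga8, an alpha chain whose receptor binds nephronectin and which is known from stellate cells, was the gene called higher. It read 0.495 and 0.181 FPKM in control livers, then 2.17 and 2.33 FPKM in gelADSC livers (1.29, SE 0.24, adjusted p = 0.00691). Itga8 reached the level for testing only through the gelADSC libraries. The calls of Itga3, Ddr1 and Itga8 held in all alternatives in which they were tested, and that of Itgav was lost without control library 1 (0.0704, the highest of 11 alternatives, with a lowest of 0.000782). Leaving out control library 1 gave 2 lower genes and 1 higher, and a mean of at least 5 FPKM 4 lower and 0 higher.

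Of 10 other tested proteoglycan genes 3 were called (30%, beside 24.4% of all genes), and of these Srgn, serglycin (-1.27), and Cd44, the hyaluronan receptor (-1.02), were lower and Sdc2, syndecan-2 (0.89), higher. Among other metalloproteases Mmp7, matrilysin, was lower (1 of 5 tested, -1.60), and of 13 tested adamalysins and cathepsins Adamts4 (-1.40), Adam15 (-0.96) and Adam8 (-0.76) were lower. The lower shares of these 2 lists, 20% and 23.1%, are near the 17.5% of all genes. Adamts4, an aggrecanase, kept its call in all 10 alternatives in which it was tested, while Mmp7 lost it in 5 of 10, Adam15 in 5 of 11 and Adam8 in 6 of 10. With control library 1 left out the proteoglycan list held 0 calls in either direction, the metalloprotease list 0 and the adamalysin and cathepsin list 1 lower gene.

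Marker lists of other cells gave these counts, beside 17.5% lower and 6.92% higher among all tested genes. Portal or stromal fibroblast markers had 1 lower of 5 tested (Entpd2), mesothelial markers 0 called of 2, macrophage markers 1 lower of 11 (Cd68), bile duct markers 2 lower of 5 (Spp1, Sox9), adipocyte markers 2 lower of 4 (Fabp4, Cidea) and hepatocyte markers 0 called of 10. Several of these counts moved with single libraries. Leaving out control library 1 gave 0 fibroblast calls and 1 adipocyte call, control library 3 gave 0 fibroblast calls, 1 mesothelial lower and 1 adipocyte lower, and gelADSC library 3 gave 3 lower and 2 higher macrophage genes and 0 lower and 1 higher fibroblast gene. Leaving out gelADSC library 2 gave 2 lower macrophage genes and 3 lower adipocyte genes, and 2 hepatocyte markers were higher with a mean of at least 5 FPKM or no trend. Alas2, of the erythroid list, was the gene of that list with a level for testing and was higher, and the hemoglobin genes were listed at 0 in all libraries.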
